A study of Mus musculus with 6 samples.

Results

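Antigen receptor genes are carried as separate V, D, J and C segments, and the rows described here are the expressed segments of the immunoglobulin and T cell receptor (TCR) loci in regulatory T cells. The gene tables listed 657 such rows by name on the 7 loci: Igh (heavy chain, chromosome 12), Igk and Igl (light chains, chromosomes 6 and 16), Tra and Trd (TCR alpha and delta, chromosome 14), Trb (TCR beta, chromosome 6) and Tcrg (TCR gamma, chromosome 13). A row was kept when its FPKM (fragments mapped to a gene, scaled to its length and to the size of the library) was 1 or more in 3 or more of the 6 libraries, which left 178. The rows were thus selected on their FPKM level, so levels are given as a description with no test. The FPKM limit does not use the difference between the groups, but the set was proposed with earlier results of these data known. Of the 657 rows, 445 were below 1 in every library and 248 were listed at 0 in all 6. Among the 178, 149 reached 1 in every library, 8 reached it in exactly 3, and none reached it through 1 treatment group alone. Just inside the limit stood Trav10n, Traj7 and Trdj2, whose third-highest FPKM was 1.06, 1.14 and 1.18, and just outside it stood Trav7d-5, Trav7n-4 and Trav7n-5 at 0.958, 0.948 and 0.932.

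The cells were natural regulatory T cells (nTregs) from the spleens of C57BL/6 mice of the genotype Foxp3-DTR/EGFP, in which the Foxp3 locus also encodes a diphtheria toxin receptor and a green fluorescent protein. All cultures were first activated for 2 days with antibodies to CD3 (plate-bound) and CD28 plus IL-2. For the last 6 h they received either DMSO, the vehicle, or a 100 nM EP4 agonist, EP4 being 1 of the receptors of prostaglandin E2, and GFP-positive cells were sorted for stranded mRNA sequencing. Each treatment had 3 libraries numbered 1 to 3; neither the age and sex of the mice nor whether the numbers stand for mice, cultures or aliquots is given, so every p-value rests on a spread between libraries that may be technical only. Foxp3 stood at 109.33 to 153.81 FPKM, Il2ra at 786.06 to 937.20 and Cd3e at 173.62 to 198.64 in the 6 libraries, while the CD8 T cell markers Cd8a and Cd8b1 summed to 3.89 to 6.40 (Cd8a at most 0.51), the 5 NK and NKT cell markers summed to at most 1.68 and the 7 myeloid markers to at most 0.832. The aligned bases behind a library ranged from 4.32 to 5.65 gigabases. Libraries that shared a number deviated together across all tested genes (correlations of 0.321 to 0.512 for the 3 pairs), and several segments below followed the number rather than the treatment.

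In developing lymphocytes the RAG1 and RAG2 recombinase joins 1 V segment, a D segment in the heavy, beta and delta chains, and 1 J segment, and the joined V region is then spliced to a constant (C) region. An alpha-beta T cell carries rearranged alpha and beta genes; a B cell carries rearranged heavy and light chain genes. Segments that were never joined can also be transcribed, as germline or sterile transcripts, and heavy chain transcripts of that kind are known from T lineage cells. A gene table sums reads over each segment and does not show which V, D and J segments were joined in a molecule, so germline and rearranged transcripts cannot be told apart here. In sorted bulk cells, fewer cells with a transcript and less transcript per cell cannot be told apart either.

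Heavy chain rows that reached the limit lay mostly in the stretch from the last D row through the J rows to the mu and delta constant regions. Kept were 1 of 20 D rows, 4 of 4 J rows, 2 of 8 C rows and 1 of 185 V rows. The D row was Ighd4-1, long known as DQ52, the D segment nearest to the J segments. The D segment and the 4 J segments are shown because they are the rows on which the treatment comparison turns. Sequences are those of the GENCODE M21 transcripts (mm10, minus strand of chromosome 12) and run 5′ to 3′. Capitals mark the J motif (TGGGG, any 4 bases, then GG), which encodes the conserved tryptophan-glycine-X-glycine of the heavy chain J region.
Ighd4-1 (chr12:113430528-113430538): ctaactgggac
Ighj1 (chr12:113429781-113429833): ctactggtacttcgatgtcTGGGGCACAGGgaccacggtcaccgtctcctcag
Ighj2 (chr12:113429468-113429515): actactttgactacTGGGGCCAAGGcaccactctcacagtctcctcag
Ighj3 (chr12:113429085-113429132): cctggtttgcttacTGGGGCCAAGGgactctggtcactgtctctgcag
Ighj4 (chr12:113428514-113428567): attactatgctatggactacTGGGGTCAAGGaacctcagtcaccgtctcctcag

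Read on the sense strand of each segment, this tryptophan form or the phenylalanine form (TTNGG, any 4 bases, then GG), which cannot match at the same position, was found in 72 of all 90 J rows (80%) and in 43 of the 48 J rows kept (89.6%). The letters TTN also cover the leucine codons TTA and TTG, and the reading frame was not checked, so these are counts of letters only. All 4 Ighj rows held the tryptophan form. The kept J rows without either form were Traj1, Traj3, Trbj1-6, Trbj1-7 and Trbj2-6; a J row without these letters can still be functional, and Traj1 and Trbj2-6 are annotated as pseudogenes.

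With the EP4 agonist, 3 of the 178 segments fell and none rose by limma's moderated test on log2(FPKM + 1) with Benjamini-Hochberg adjustment over all 12186 tested genes, and all 3 lie at the heavy chain locus. They were Ighm, the constant region of the mu heavy chain, and the joining segments Ighj1 and Ighj2. Over all tested genes 48 of 12186 passed (0.394%), 6 of them downwards (0.0492%). With the replicate number as a block in the model, 14 of the 178 fell and none rose (7.87%), beside 10.5% of all tested genes in either direction, 6.41% downwards and 4.09% upwards. The FPKM ranges of the 2 groups did not overlap for 33 segments, 31 lower and 2 higher with the agonist; among all tested genes 19.4% had ranges that did not overlap, 12.1% lower and 7.27% higher. At an unadjusted p under 0.05, 24 segments (13.5%) were lower and 2 (1.12%) higher, against 8.74% and 5.22% of all tested genes. With the block, the share of segments that fell was thus near that of all tested genes that fell.

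Ighm (chr12:113418558-113422730, minus strand) stood at 323.75, 324.61 and 310.76 FPKM in vehicle libraries 1 to 3 and at 225.95, 218.98 and 217.28 in the agonist libraries. Every agonist library was below every vehicle library, at 67.5 to 69.9% of the vehicle library of the same number. The log2 fold change was −0.53 (SE 0.07, adjusted p = 0.0424, limma; 0.0166 with the replicate block). Its level was of the order of the TCR constant regions: the ratio of Ighm to Trac FPKM was 0.677 to 0.813 in the vehicle libraries and 0.569 to 0.641 in the agonist libraries. The adjusted p of Ighm ranged from 0.0166 to 0.216 over 20 alternatives, 10 of which kept it under 0.05, and the direction was downward in all 20.

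The J segments lie upstream of Ighm, with Ighj1 the farthest from it. For Ighj1, the values were 44.11, 56.12 and 50.84 FPKM with vehicle and 25.90, 28.74 and 25.34 with the agonist (log2 fold change −0.89, SE 0.11, adjusted p = 0.0267, limma). Ighj2 gave 8.62, 10.64 and 9.40 FPKM with vehicle and 4.19, 5.16 and 4.52 with the agonist (log2 fold change −0.91, SE 0.11, adjusted p = 0.0267). Both groups were separate for both segments, and agonist means were 52.9% and 48.4% of the vehicle means. The adjusted p over 19 alternatives ranged from 0.0130 to 0.136 for Ighj1 and from 0.0142 to 0.139 for Ighj2, with 11 under 0.05 for each.

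Ighj4, nearest to Ighm, stood at 10.94, 13.04 and 10.60 FPKM with vehicle and at 6.64, 7.96 and 5.10 with the agonist. Its ranges did not overlap; the log2 fold change was −0.74 (SE 0.15, adjusted p = 0.124, limma), and it passed with the replicate block (adjusted p = 0.0187). Ighj3 gave 6.13, 7.51 and 6.51 FPKM with vehicle and 2.98, 6.70 and 3.55 with the agonist, so agonist library 2 lay within the vehicle range (adjusted p = 0.35). In the D segment Ighd4-1, 25.24, 33.34 and 27.53 FPKM with vehicle stood against 14.15, 13.25 and 17.18 with the agonist. Those ranges were separate (log2 fold change −0.90, SE 0.13); the adjusted p was 0.0513, just outside the threshold, and 0.0253 with the replicate block. It passed under 8 of 19 alternatives.

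The 4 J segments were not expressed alike. Ighj1 was 5.12 to 6.18 times as high per length as Ighj2 in the 6 libraries, and summed J FPKM was 78.2 ± 8.78 (SD, n = 3) with vehicle and 42.3 ± 5.48 (SD, n = 3) with the agonist. The row of Ighj2 spans 100 bases, of which the J sequence is 48, so its FPKM is an average over both. A D row of 11 bases or a J row of about 50 is shorter than a sequenced fragment, so its FPKM describes the depth of reads over those bases, whichever transcript they belong to.

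Each library's own assembly, deposited in the same tables, joined Ighm to the upstream segments in a single locus on the minus strand. That locus began at position 113418558 of chromosome 12 in all 6 libraries, where Ighm ends, and reached 113430611 to 113430781, past Ighd4-1. Its FPKM was 239.53, 186.01 and 225.43 with vehicle and 170.54, 134.19 and 155.77 with the agonist, again without overlap. Put in place of the Ighm row, the locus gave a log2 fold change of −0.50 with an adjusted p of 0.182, which did not pass. It is built from the same reads as the rows above and is no independent measurement. Whether the tables counted reads by strand is not given.

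**Figure D1:**
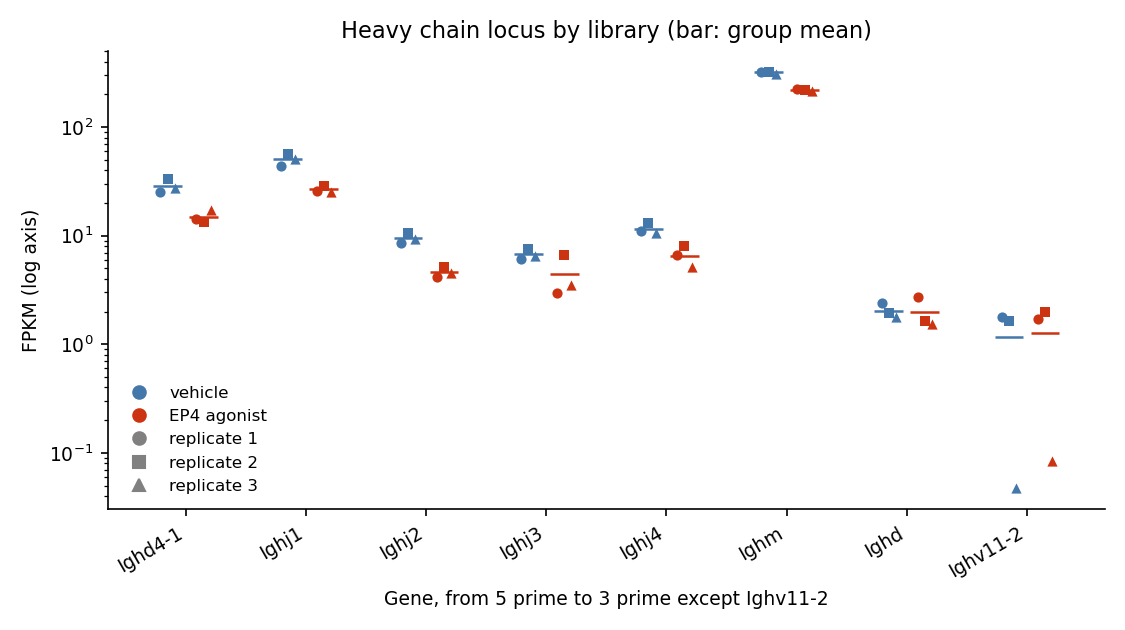
FPKM (log axis) of the 8 heavy chain rows in each of the 6 libraries, vehicle in blue and EP4 agonist in red, with a symbol for each replicate number and a bar at each group mean. Ighd4-1, Ighj1, Ighj2, Ighj4 and Ighm have separate groups, with every agonist library lower; Ighj3, Ighd and Ighv11-2 overlap, and Ighv11-2 is near 0 in replicate 3 of both groups.

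The remaining heavy chain rows did not follow these. Ighd, the delta constant region that is spliced from the same primary transcript as Ighm in mature B cells, stood at 2.39, 1.92 and 1.78 FPKM with vehicle and 2.73, 1.64 and 1.55 with the agonist (log2 fold change −0.05, SE 0.18, adjusted p = 0.939, limma). Ighm was 82.7 to 174.6 times as high as Ighd per length. The other 6 heavy chain constant rows were below the limit. The only V row kept, Ighv11-2, stood at 1.78, 1.65 and 0.05 FPKM with vehicle and 1.72, 2.00 and 0.08 with the agonist; replicate 3 was near 0 in both groups.

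Genes that mark B cells were mixed in level in the same libraries. Among the defining ones, Ms4a1 did not exceed 0.061 FPKM, Pax5 0.009 and Ebf1 0.013. Of the 18 B cell markers listed, 11 were below 1 in every library, 6 were tested and none of these 6 passed in either fit (2 had an unadjusted p under 0.05). The summed FPKM of all 18 was 41.4, 39.7 and 25.9 with vehicle and 49.1, 41.1 and 26.5 with the agonist. Cd74, the invariant chain of antigen presentation, was the highest of them at 9.83 to 29.3, and Cd79b (3.03 to 5.09), H2-Aa, H2-Ab1 and H2-Eb1 (2.05 to 5.62 each) were also present. The marker sum was lowest in replicate 3 of both groups, as was Cd74, at 9.83 FPKM with vehicle and 12.5 with the agonist. Cd79b stood at 5.09, 4.59 and 5.02 with vehicle in replicates 1 to 3, and at 3.62, 4.54 and 3.03 with the agonist. The part of B cells in the heavy chain values was not tested. The 7 plasma cell markers summed to 143 to 184 FPKM, mostly from Xbp1 (111 to 155), a factor that other cells express too; Prdm1 stood at 4.08 to 9.09, Jchain did not exceed 0.249, and Tnfrsf17 was at 0 in all 6 libraries. Irf4, on that list and also a factor of activated T cells, fell with the replicate block (33.3 ± 5.80 to 22.1 ± 1.31 FPKM, SD, n = 3; adjusted p = 0.0253, and 0.156 without the block).

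Light chain segments were few and followed the replicate number. Igkc, the kappa constant region, stood at 3.23, 6.35 and 0.99 FPKM with vehicle and at 4.45, 5.30 and 1.27 with the agonist. Igkv14-126, the kappa V segment kept of 160, stood at 2.72, 2.82 and 0.12 with vehicle and 5.87, 3.22 and 0.26 with the agonist. Replicate 3 was the lowest of its group in both rows and both groups, and neither row passed (adjusted p = 0.952 and 0.848, limma). No Igkj row of 5 and no Igl row of 12 reached the limit. Ighv11-2 and Igkv14-126 are the pair of V segments known from B-1 cells that bind phosphatidylcholine, and they were the V rows kept of 185 in Igh and 160 in Igk. The last 48 bases of each are shown, on the coding strand, with capitals on the TGT codon of the conserved cysteine near the V end.
Ighv11-2 (chr12:114048241-114048288, minus strand): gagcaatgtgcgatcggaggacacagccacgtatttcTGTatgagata
Igkv14-126 (chr6:67896595-67896642, plus strand): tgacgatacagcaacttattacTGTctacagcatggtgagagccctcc

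Gamma chain segments followed the number in another order, with replicate 2 highest. Tcrg-C1, a gamma constant region, stood at 5.75, 12.29 and 7.12 FPKM with vehicle and 7.57, 16.77 and 8.21 with the agonist. Tcrg-C2 gave 5.80, 13.03 and 5.80 with vehicle and 7.04, 20.72 and 5.52 with the agonist. For Tcrg-C4 the values were 6.62, 12.57 and 4.66 against 5.99, 15.54 and 4.50, and for the V segment Tcrg-V4 they were 2.24, 8.52 and 1.38 against 3.61, 8.67 and 1.30. Replicate 2 was the highest library of both groups for all 4 rows. None of the 4 passed (adjusted p = 0.726 to 0.98, limma; 0.0532 to 0.822 with the replicate block).

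The delta constant region Trdc was low and also highest in replicate 2, at 2.04, 3.45 and 1.36 FPKM with vehicle and 2.65, 3.96 and 1.40 with the agonist. Trdj1 stood at 3.61, 2.97 and 1.42 against 3.01, 4.89 and 1.87, and Trdj2 at 0.39, 1.75 and 0.77 against 1.18, 1.68 and 0.49. Of the 3 delta V rows, Trdv1 stood between 2.07 and 3.74 FPKM, Trdv5 between 0.93 and 3.93 and Trdv2-2 between 1.04 and 2.63. Trdj1 and the 3 delta V rows were highest in replicate 1 with vehicle, so replicate 2 was not the highest throughout the delta locus. No row of the delta locus passed in either fit. Genes known from gamma-delta T cells were low: Cd163l1 stood at 0.47, 0.94 and 0.37 FPKM with vehicle and 0.52, 1.07 and 0.20 with the agonist, and Sox13 did not exceed 0.427. The 6 genes of that list, which include Tcrg-C1 and Trdc, summed to 8.90, 18.3 and 9.37 with vehicle and to 11.6, 22.8 and 10.1 with the agonist, so replicate 2 was again the highest. The part of such cells in the gamma and delta values was not tested.

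**Figure D2:**
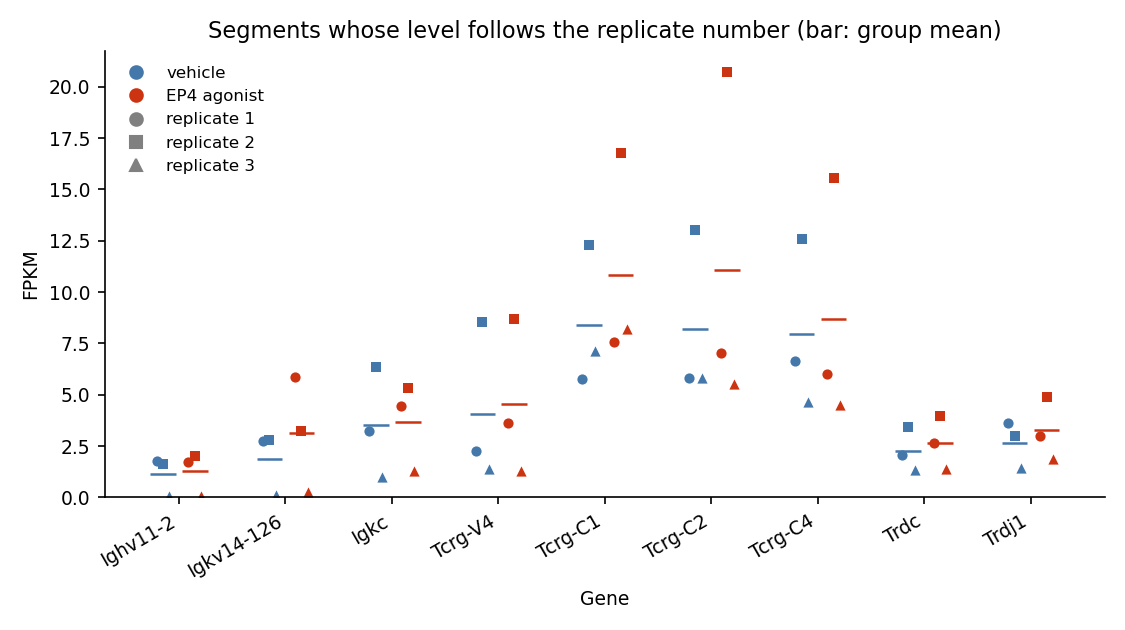
FPKM (linear axis) of 9 heavy V, kappa, gamma and delta rows in each of the 6 libraries, with a symbol for each replicate number and a bar at each group mean. Replicate 3 (triangles) is near 0 for Ighv11-2 and Igkv14-126 in both groups, and replicate 2 (squares) is the highest library of each group for the 4 gamma rows and Trdc.

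Alpha and beta chain rows made up most of the kept segments: 118 of 178 were Tra and 40 were Trb. Trb held 61.7 to 68.6% of the summed FPKM of the 178 rows, and the 178 rows together held 0.801 to 1.02% of the FPKM of all reference genes. All 14 Trbj, both Trbd and 22 of 35 Trbv rows were kept, beside 89 of 128 Trav and 28 of 60 Traj rows. Median FPKM per row was 52.2 for Trbj, 37.2 for Trbv, 4.15 for Trav and 2.67 for Traj. The alpha locus thus spread its signal over more rows at lower levels: the 5 highest V rows held 14.6% of summed Trav FPKM and 42.8% of summed Trbv FPKM.

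**Figure D3:**
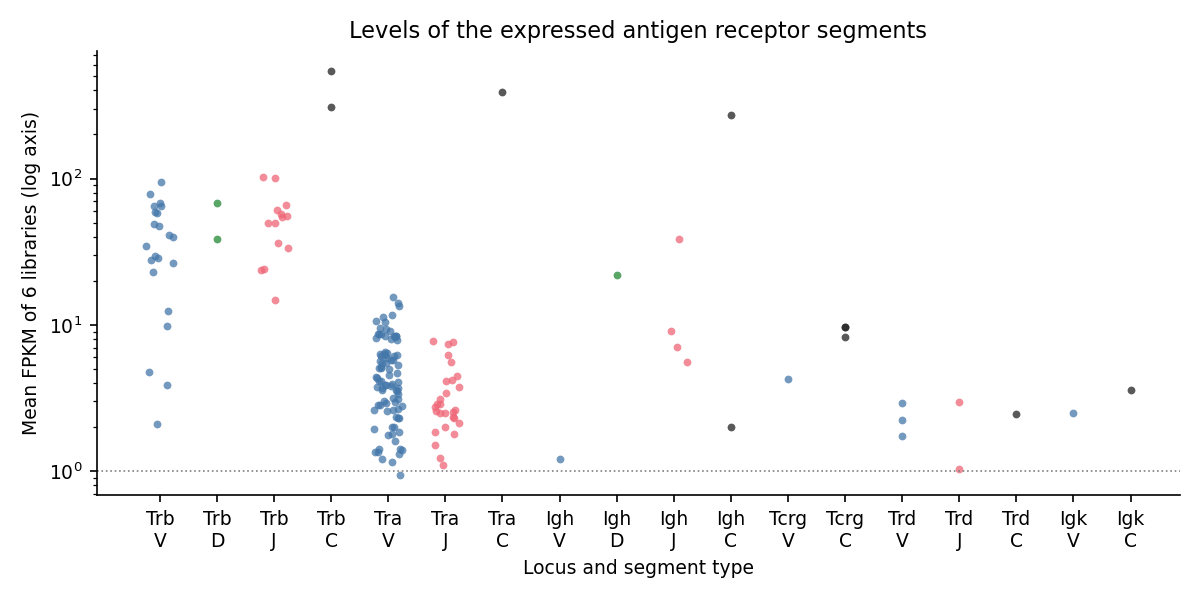
Mean FPKM over the 6 libraries (log axis) of each of the 178 rows, 1 point per row, by locus and segment type; the dotted line is at 1 FPKM. Trbc2, Trac, Trbc1 and Ighm are the 4 highest points, Trb V and J rows lie mostly between 10 and 100, and Tra V and J rows lie between about 1 and 16.

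The alpha constant region Trac stood at 408.13, 399.34 and 458.70 FPKM with vehicle and 367.73, 341.63 and 381.94 with the agonist. All 3 agonist libraries were below all 3 vehicle libraries, but the difference did not pass (log2 fold change −0.21, SE 0.09, adjusted p = 0.375, limma; 0.0717 with the replicate block). Trbc1, the first beta constant region, gave 353.07, 270.14 and 291.42 against 318.99, 297.79 and 306.76 (log2 fold change 0.02, adjusted p = 0.953). For Trbc2, 615.24, 507.86 and 581.34 with vehicle stood against 543.65, 476.83 and 535.46 with the agonist (log2 fold change −0.13, adjusted p = 0.633). The groups overlapped for both beta constant regions, whose transcripts are 96.0% identical where they align, so reads could be split between them.

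Beta J segments are shown next because they were the highest J rows and include an expressed pseudogene. The first pair are the Trbj rows of highest mean FPKM, with the phenylalanine form of the J motif in capitals; Trbj2-6 holds neither form. The D segments Trbd1 and Trbd2 follow. All lie on the plus strand of chromosome 6 (mm10, GENCODE M21 transcripts).
Trbj2-1 (chr6:41542754-41542803): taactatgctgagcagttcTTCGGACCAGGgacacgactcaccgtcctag
Trbj2-7 (chr6:41543810-41543856): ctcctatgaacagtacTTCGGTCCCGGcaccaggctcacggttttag
Trbj2-6 (chr6:41543598-41543645): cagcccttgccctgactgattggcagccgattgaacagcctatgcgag
Trbd1 (chr6:41533201-41533212): gggacagggggc
Trbd2 (chr6:41542163-41542176): gggactgggggggc

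Trbj2-1 stood at 125.41, 87.08 and 102.17 FPKM with vehicle and 115.95, 95.19 and 90.01 with the agonist. Trbj2-7 gave 117.32, 96.30 and 101.84 against 100.26, 87.06 and 101.24. Trbj2-6, the pseudogene, gave 22.36, 19.99 and 23.94 against 28.45, 22.75 and 24.05, the lowest mean (23.6) of the 7 Trbj2 rows. All 14 Trbj rows had overlapping groups and a median log2 fold change of 0.01, beside −0.03 for all tested genes. The 7 Trbj1 rows summed to 277 ± 35.2 FPKM (SD, n = 3) with vehicle and 292 ± 24.95 with the agonist, and the 7 Trbj2 rows to 457 ± 54.4 and 433 ± 37.5.

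Trbd1, which joins Trbj1 or Trbj2 segments, stood at 41.17, 30.11 and 32.51 FPKM with vehicle and 42.22, 42.81 and 43.06 with the agonist. The agonist libraries were all above the vehicle libraries, and the difference did not pass (log2 fold change 0.31, SE 0.12, adjusted p = 0.316, limma; 0.115 with the replicate block). Trbd2 gave 86.96, 60.52 and 71.21 against 68.23, 57.40 and 63.14, with overlapping groups.

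Among the beta V segments, Trbv13-2 (10.9% of summed Trbv FPKM) and Trbv3 (9.05%) were the highest. Trbv13-2 stood at 111.70, 87.86 and 97.36 FPKM with vehicle and 101.86, 83.17 and 85.55 with the agonist, and Trbv3 at 89.50, 76.04 and 78.34 against 78.35, 71.11 and 77.94; neither passed in either fit. With the replicate block 3 of 22 Trbv rows fell (13.6%, beside 6.41% of all tested genes), namely Trbv1, Trbv5 and Trbv13-1. Trbv1 gave 83.30, 73.86 and 69.07 against 70.63, 57.79 and 55.78 (block adjusted p = 0.0295). Trbv5 gave 58.40, 66.24 and 67.63 against 50.88, 54.81 and 57.89 (0.0406), and Trbv13-1 gave 52.89, 40.29 and 43.19 against 40.24, 32.92 and 37.20 (0.0368). Each was lower with the agonist at every number, by log2 fold changes of −0.30, −0.23 and −0.29, and none passed without the block (adjusted p = 0.328 to 0.352, limma).

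The alpha V rows carry a limit on what a single row can show. Of the 89 kept, 59 have another segment at least 97% identical over at least 90% of their own length, against 0 of 22 Trbv rows. The Trav cluster is repeated in C57BL/6 mice (names with d and n). Because the length is that of the row itself, the count can miss 1 side of a pair. Trav6-3, Trav9-1 and Trav13d-1 were not counted, although Trav6d-3 (100%), Trav9d-1 (99.4%) and Trav13n-1 (99.7%) matched them. Reads could be split among such copies, so single Trav values are uncertain and families are the firmer unit. The Trav6 family of 14 rows held 20.6% of summed Trav FPKM (19.7 to 22.0% over the 6 libraries), the Trav7 family of 10 rows 14.1% (13.7 to 14.6%) and the Trav14 family of 8 rows 10.6% (9.85 to 11.1%). The highest single rows were Trav4-4-dv10 at 13.72, 17.00 and 16.39 FPKM with vehicle and 15.39, 13.86 and 17.47 with the agonist, and Trav6d-6 at 15.08, 13.12 and 14.87 against 15.15, 13.49 and 13.08.

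With the agonist, 79 of 89 Trav rows had a log2 fold change below 0, with a median of −0.17. Among all tested genes, 6971 of 12186 were below 0, with a median of −0.03. Of the Trav rows, 20 had groups that did not overlap, all lower (22.5%, beside 12.1% of all tested genes). Rows that share reads are not independent, and Trac, to which alpha V transcripts are spliced, lay at −0.21. By limma no Trav row passed without the block. At an unadjusted p under 0.05, 12 were lower (13.5%, beside 8.74% of all tested genes). With the block 5 of 89 fell, a share of 5.62% beside 6.41% of all tested genes. They were Trav9d-1, Trav4d-4, Trav13n-2, Trav7-4 and Trav3-3. Trav4d-4 gave 8.06, 7.48 and 8.81 FPKM with vehicle against 3.81, 3.03 and 6.17 with the agonist (log2 fold change −0.81, block adjusted p = 0.0325, and 0.172 without the block). Trav9d-1 gave 5.44, 5.73 and 5.43 against 3.84, 3.77 and 4.06 (−0.42; 0.0331 and 0.124). The groups were also separate for Trav13n-2 (2.80 to 1.80 FPKM on average), Trav7-4 (13.1 to 10.5) and Trav3-3 (11.8 to 9.07), with block adjusted p-values of 0.0446, 0.034 and 0.0418. All 5 have a near-identical copy. Trav4d-4 matched Trav4n-4 and Trav13n-2 matched Trav13d-2 over every aligned base. The copies did not pass in either fit. Trav4n-4 averaged 9.67 FPKM with vehicle and 9.25 with the agonist (log2 fold change −0.07, block adjusted p = 0.768, limma). Trav13d-2 averaged 2.59 and 2.05 (−0.23, block adjusted p = 0.26, limma). Reads may be shared within each pair, so a fall of 1 copy alone cannot be assigned to that row.

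V segment use was compared between libraries. Over the 117 V rows kept, the correlation of log2(FPKM + 1) was 0.980 to 0.984 for the 3 pairs of libraries with the same number and 0.944 to 0.976 for the 12 other pairs, as a description across rows that share libraries and, in Tra, reads. In Trbv alone the ranges were 0.988 to 0.993 and 0.982 to 0.993, and in Trav alone 0.938 to 0.951 and 0.917 to 0.948. Within Trbv and within Trav, the ranges of same-numbered and other pairs thus overlapped. The 117 rows also include the V rows kept of Igh, Igk, Tcrg and Trd, of which several followed the replicate number. The values over all 117 also reflect the higher level of Trbv. The part of the rows outside Tra and Trb in the separation of same-numbered pairs was not tested.

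**Figure D4:**
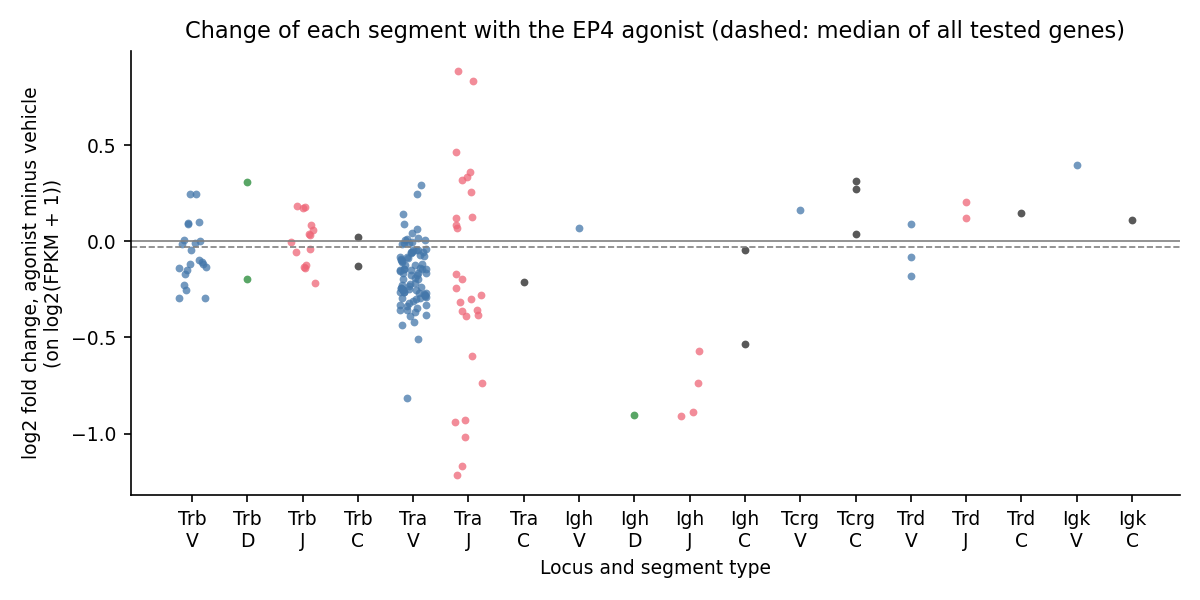
Log2 fold change, agonist minus vehicle on log2(FPKM + 1), of each of the 178 rows by locus and segment type; the dashed line is the median of all 12186 tested genes (−0.03). The D, J and mu constant rows of Igh lie below −0.5, Tra V rows lie mostly below 0, Trb rows lie around 0, and Tra J rows are spread from −1.22 to 0.89.

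By locus, summed FPKM was 430 ± 16.7 (SD, n = 3) with vehicle and 281 ± 5.62 with the agonist for Igh, a ratio of 0.654. For Tra the sums were 1013 ± 72.7 and 872 ± 74.6 (ratio 0.861), and for Trb 2614 ± 289 and 2497 ± 174 (0.955). Tcrg gave 28.6 ± 15.4 and 35.2 ± 23.1, Igk 5.41 ± 4.06 and 6.79 ± 4.65, and Trd 13.1 ± 4.03 and 13.8 ± 4.78, with overlapping groups in all 3. By segment type over all loci, median log2 fold changes were 0.03 for the 10 C rows, −0.20 for the 3 D rows, −0.13 for the 48 J rows and −0.14 for the 117 V rows.

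Among the alpha and beta rows, the alpha J segments varied most between libraries. The median coefficient of variation within a group was 57.6% over the 28 Traj rows, against 16.8% over the 67 Trav rows and 14.4% over 4825 other genes in the same range of mean FPKM. The 14 Trbj rows, of like length but higher FPKM (none below 14.8), had a median of 10.8%. Kept Traj rows span 29 to 66 bases and kept Trav rows 328 to 595. At the same FPKM a Traj row thus rests on fewer sequenced bases than a Trav row. The part of this in the spread was not tested. The highest library exceeded the lowest more than 5-fold, or the lowest was listed at 0, in 17 of 28 Traj rows; the ratio was 1.18 to 1.64 in Trbj. The segments below are those that show this range or the largest group differences (chromosome 14, plus strand, phenylalanine form of the J motif in capitals).
Traj39 (chr14:54179962-54180024): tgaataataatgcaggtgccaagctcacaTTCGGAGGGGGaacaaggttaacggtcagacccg
Traj31 (chr14:54187895-54187951): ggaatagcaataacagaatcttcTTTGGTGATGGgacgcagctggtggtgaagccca
Traj23 (chr14:54196081-54196140): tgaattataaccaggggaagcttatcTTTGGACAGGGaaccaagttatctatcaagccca
Traj18 (chr14:54200777-54200842): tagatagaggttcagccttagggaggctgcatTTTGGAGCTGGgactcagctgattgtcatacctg
Traj9 (chr14:54209393-54209450): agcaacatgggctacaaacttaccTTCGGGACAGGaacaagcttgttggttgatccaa

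Traj23, the Traj row of highest mean FPKM, stood at 13.64, 0.17 and 12.49 with vehicle and 9.71, 0.34 and 10.29 with the agonist: replicate 2 was near 0 in both groups. The deposited read depth over it was 67.5, 0.98 and 56.1 with vehicle and 48.4, 1.47 and 49.96 with the agonist. Traj31 gave 0.88, 14.42 and 10.29 FPKM against 12.12, 0.63 and 5.84, with no common order of the numbers. Traj37 gave 10.72, 10.84 and 1.09 against 7.29, 5.75 and 10.01. Listed at 0 in a vehicle library were Traj42 and Traj47 (replicate 2) and Traj33 (replicate 1).

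The assembled locus that covers Trac began at the start of Traj23 in vehicle 1 and agonist 1, of Traj31 in vehicle 2, of Traj32 in vehicle 3 and of Traj27 in agonist 3, and at Trac itself in agonist 2. Traj23 and Traj31 were each high in the libraries where that locus started at them. Traj32 in vehicle 3 (4.88 FPKM) and Traj27 in agonist 3 (12.86) were at their highest where it started at them. Traj23 was also high in vehicle 3 and agonist 3, and Traj31 in vehicle 3 and agonist 1, where the locus did not start at them. The same held in vehicle 1 for Traj32 (3.97) and Traj27 (8.70). The part of this assembly in the spread of Traj values was not tested.

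Group differences in Traj have to be read against that spread. The 3 lowest log2 fold changes of all 178 rows were Traj9 (−1.22), Traj32 (−1.17) and Traj39 (−1.02), and the 3 highest were Traj18 (0.89), Traj26 (0.84) and Traj11 (0.46). None passed without the block (adjusted p = 0.124 to 0.611, limma), and Traj39 alone of the 6 passed with it (0.0194). Traj39 stood at 2.69, 5.51 and 7.58 FPKM with vehicle and 0.57, 2.13 and 4.05 with the agonist, lower at each number although the groups overlapped. Traj9 gave 1.34, 8.13 and 1.37 against 0.22, 1.34 and 0.42; vehicle 2 accounts for most of its vehicle mean. Traj32 gave 3.97, 2.24 and 4.88 against 3.41, 0.18 and 0.61, Traj26 gave 6.57, 4.55 and 1.15 against 5.12, 7.98 and 8.36, and Traj11 gave 1.23, 0.40 and 1.57 against 1.64, 0.79 and 3.45.

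Traj18, the J segment of the invariant NKT cell receptor, was the only Traj row whose agonist libraries were all above the vehicle libraries: 1.02, 1.98 and 1.91 FPKM against 4.47, 3.72 and 3.28 (log2 fold change 0.89, SE 0.18, adjusted p = 0.124; 0.0549 with the replicate block). Zbtb16, the transcription factor that marks NKT cells, stood at 0.18, 0.30 and 0.13 FPKM with vehicle and 0.47, 0.84 and 0.22 with the agonist. The 5 NK and NKT cell markers, of which Klra8 was at 0 throughout, summed to 0.599, 1.68 and 0.499 against 0.786, 1.47 and 0.379. The 2 rows of the Trav11 family, the V segments used in that receptor, held 1.02, 0.935 and 0.61% of summed Trav FPKM with vehicle and 0.644, 1.001 and 0.635% with the agonist. The part of NKT cells in the Traj18 values was not tested.

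Successive rearrangements of an alpha gene are known to use J segments ever nearer to Trac, so position along the Traj array was set beside level. Of the 30 Traj rows nearest to Trac, 21 were kept (median FPKM of all 30 rows, 2.32), and of the 30 farthest, 7 were (0.653). The values do not show which transcripts the reads over a J row belong to. The part of successive rearrangement in this difference was not tested.

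**Figure D5:**
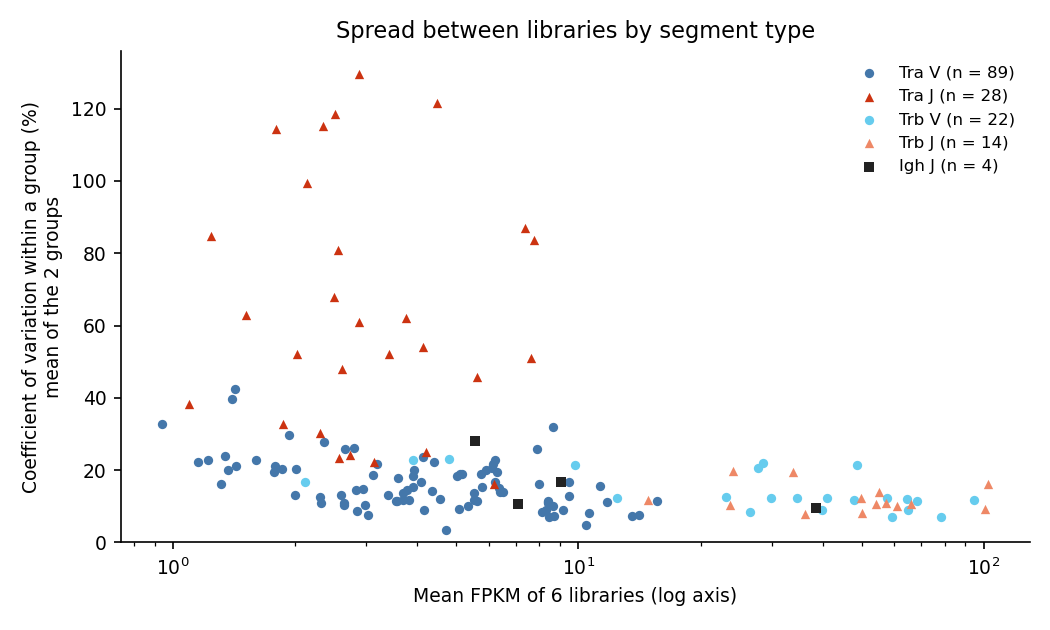
Coefficient of variation within a group (mean of both groups, in percent) against mean FPKM over the 6 libraries (log axis) for the V and J rows of Tra and Trb and the J rows of Igh. Tra J rows (dark triangles) reach above 100% while Tra V rows at the same FPKM stay below 45%. Tra J rows are shorter (29 to 66 bases) than Tra V rows (328 to 595), so they rest on fewer sequenced bases at the same FPKM.

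The machinery and partner chains of these receptors were measured alongside. RAG1 and RAG2, which cut the recombination signals, were at or near 0: Rag2 was at 0 in all 6 libraries and Rag1 did not exceed 0.058 FPKM. Dntt, which adds bases at the joins, did not exceed 0.331. Of 21 listed genes of recombination and editing, 20 were found by symbol and 16 were tested; by limma none passed without the block (5 had an unadjusted p under 0.05, 2 of them higher). With it Xrcc6, a subunit of the Ku end-binding complex (24.7 ± 3.15 to 18.8 ± 2.17 FPKM, SD, n = 3, adjusted p = 0.0209), and Ung, a uracil glycosylase (11.7 ± 1.96 to 8.33 ± 1.15, adjusted p = 0.021), fell. Xrcc6 and Ung were 2 of the 16 tested, beside 6.41% of all tested genes that fell with the block. The median of the 16 was −0.10. Hmgb2 and Hmgb1, DNA-bending cofactors of RAG with many other roles, were the highest of the list at 456 ± 67.7 and 125 ± 21.5 FPKM with vehicle.

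The CD3 and zeta chains that carry the TCR to the surface, with the coreceptor Cd4, did not pass in either fit: 0 of the 5 tested by limma (Cd3e, Cd3d, Cd3g, Cd247 and Cd4) rose or fell, 0 also at an unadjusted p under 0.05, with a median log2 fold change of 0.04. Cd3g stood at 186 ± 21.4 FPKM with vehicle and 185 ± 19.2 with the agonist, and Cd3e at 179 ± 4.14 and 184 ± 13.1. Among the invariant chains of the B cell receptor, Cd79b was the only one of 7 tested, at 5.09, 4.59 and 5.02 FPKM against 3.62, 4.54 and 3.03 (adjusted p = 0.336), and Cd79a stood between 0.57 and 1.199.

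Factors listed as known at enhancers of these loci, whether or not they bind DNA themselves, numbered 29, of which 23 were tested. By limma none passed without the block (7 had an unadjusted p under 0.05, 3 of them higher). With it 3 of the 23 rose and 3 fell, beside 4.09% and 6.41% of all tested genes, and the median was −0.02. Those that rose were Gata3 (41.9 ± 3.50 to 57.0 ± 8.32 FPKM, adjusted p = 0.0219), Runx3 (29.95 ± 1.68 to 38.5 ± 3.60, 0.0227) and Rel (10.3 ± 3.26 to 14.1 ± 3.82, 0.0209). Besides Irf4, Tcf7 (57.2 ± 16.8 to 48.3 ± 15.99, 0.0413) and Ctcf (43.3 ± 3.07 to 37.1 ± 2.62, 0.0418) fell. Ets1, at 200 ± 17.8 and 208 ± 22.2, and Nfkb1, at 109 ± 15.9 and 101 ± 17.4, were the highest and passed in neither fit.

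Genes that flank the loci give the neighbourhood. Dad1, 11.3 kb beyond Trac, stood at 80.5 ± 8.11 FPKM with vehicle and 76.3 ± 3.23 with the agonist (adjusted p = 0.782, limma). On either side of Igh, 4930427A07Rik (20.1 ± 2.37 to 17.2 ± 1.62) and Zfp386 (11.8 ± 0.658 to 12.3 ± 1.24) did not pass in either fit. Of the 12 tested genes nearest to the 6 regions, only Il12rb2, a cytokine receptor gene 179 kb from Igk, passed without the block, upwards (4.22 ± 0.85 to 11.5 ± 1.11, adjusted p = 0.0205); Rpia, on the other side of Igk, fell with the block (adjusted p = 0.0381).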

How the data were processed

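Gene expression was measured by stranded mRNA sequencing in 6 mouse nTreg libraries, 3 per treatment, grouped by title. The authors deposited 1 gene table per library on mm10, with FPKM and coverage (read depth) per gene, per the file headers. The submitters' processing notes list HISAT2 and Trim Galore; which program made the abundances, with which annotation and strand setting, is not given in the sources used here. The deposited TPM score was not used because its column repeats loci assembled from each library. Fragment counts are unknown, so no counting interval is given, and precision is the spread between libraries.

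Rows of 1 gene identifier were summed. limma 3.58.1 (trend, robust; R 4.3.3) compared agonist with vehicle on log2(FPKM + 1) for the 12186 reference genes with FPKM of 1 or more in 3 libraries, with Benjamini-Hochberg adjustment over all of them and a threshold of 0.05; fold changes on this scale understate changes of low genes. The test was checked on simulated data with independent noise in each library and with changes larger than those of the heavy chain segments. That simulation thus lacked any deviation shared by same-numbered libraries. The same-numbered libraries deviated together in all 3 pairs (r = 0.512, 0.404 and 0.321), so a fit with the replicate number as a block was set beside the results. Alternatives were other pseudocounts, filters, scalings, coverage in place of FPKM, variance settings and leaving out each library. An exact two-sided permutation test of 3 against 3 cannot give a p below 0.1.

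All 178 segments match GENCODE M21 in identifier and position; sequences come from its transcripts. Copies were found with blastn 2.17.0 (at least 97% identity over 90% of the length of the row itself). Members and lists were chosen with earlier results of these data known. Named were segments passing either fit, constant regions, the 2 highest per locus and segment type, the 3 highest and 3 lowest fold changes, those next to the FPKM limit and, in each list, genes passing either fit and the 2 highest; Traj31, Traj33, Traj42, Traj47, Trbj2-6, Trdv2-2, flanking genes and marker genes beside a result were added after values were seen.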

Additional observations from a re-analysis of the deposited data

How the results depend on the processing

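The count of segments that fell, 3, was 14 with the replicate block, 0 with no filter beyond an FPKM above 0 in 3 libraries, and 2 to 4 with other pseudocounts, a filter at 5 FPKM, coverage in place of FPKM, upper quartile or quantile scaling, no trend, or without mitochondrially encoded and ribosomal protein genes. Leaving out 1 library, or 1 number in the block, gave 0 to 4: 4 without vehicle 1, 4 without number 1 in the block, and 0 without vehicle 2 or 3, any agonist library, or number 2 or 3 in the block. No segment rose under any of these 19 alternatives. Without vehicle 2 no gene of the whole table passed (1033 had an unadjusted p under 0.05). Those fits have fewer samples, and the unfiltered fit tests more genes (22052). The directions of Ighm, Ighj1, Ighj2, Ighj3, Ighj4 and Ighd4-1 were downward under every alternative run. Beyond the counts given, the pairing of numbers (block) changed the call of Ighd4-1, Ighj4, Traj39, 5 Trav and 3 Trbv rows, and of no segment that passed without it.

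Summed FPKM of Igh, as a log2 ratio of agonist to vehicle, was −0.61 and moved between −0.63 and −0.57; that of Tra (−0.22) moved between −0.27 and −0.15, and that of Trb (−0.07) between −0.14 and 0.02. Sums over reference rows plus assembled loci were not run, because 117 to 129 of the 178 rows recur among the assembled loci with the same position and coverage. Depth limits short rows most: an FPKM of 1 is a read depth of 4.32 to 5.65.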
